A study of Mus musculus with 68 samples.

Results

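Gene expression was compared between 4L/PS-NA and WT mouse brain at 4 wks of age. 4L/PS-NA mice carried 3 lesions: the endogenous prosaposin gene was inactivated, a prosaposin transgene supplied a reduced level of the protein (these together make the PS-NA genotype), and both copies of the gene for acid β-glucosidase held a point mutation, named 4L. WT mice were FVB, as were the PS-NA mice used for comparison, whereas 4L/PS-NA mice had a mixed background of FVB, C57BL/6 and 129SvEvBrd. For every difference between 4L/PS-NA and WT described here, the combined genotype and the strain background cannot be told apart. The tissue-specificity of the transgene's promoter is not given in the sources used here. Cerebellum and cerebrum were dissected, and each array carried RNA pooled from 3 mice. The arrays were chosen by their labels alone: 4 pools of 4L/PS-NA and 4 of WT at 4 wks, with 2 pools for each region and genotype, which makes 8 of the 68 arrays of the series. The study's methods count the mice per genotype and time point, enough for 2 pools of 3, and fit subject as a random effect. Read this way, both regions came from the same mice, and the 4 pools of a genotype rest on 2 sets of animals. Which cerebellar and cerebral pools share mice is not stated. The fits below treat the pools as independent, except where a random subject is named.

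Prosaposin is the precursor of saposins A, B, C and D, small lysosomal proteins that present glycosphingolipids to the hydrolases that degrade them. Saposin C activates acid β-glucosidase, which cleaves glucosylceramide, so the 2 loci changed in 4L/PS-NA mice act on the same step. In brain, storage of undegraded glycosphingolipid in neurons is accompanied with age by activation of microglia and astrocytes and by loss of Purkinje cells. The arrays at 4 wks were taken early in that course.

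Values are the arrays' probe set signals as log2(signal + 16) after quantile normalization, and a difference is 4L/PS-NA minus WT on that log2 scale. A probe set was called when its Benjamini-Hochberg adjusted p in limma was under 0.05. A second, looser rule took the thresholds of the study's methods: the adjusted p did not exceed 0.2 and the change was 1.5-fold or more. Where groups are said not to overlap, this describes the pools and is not a test. The share of all probe sets without overlap was not counted. Region labels were borne out in all 8 arrays: Gabra6, a GABA receptor subunit of cerebellar granule cells, was between 15.24 and 15.83 in the cerebella and between 5.8 and 7.77 in the cerebra. Neurod6, a factor of forebrain neurons, was between 11.25 and 12.17 in the cerebra and between 4.16 and 7.89 in the cerebella.

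1 array stood apart. Replicate 2 of 4L/PS-NA cerebellum correlated with its pair at 0.822 over all probe sets, whereas the paired arrays of the other groups of the series correlated at 0.927 to 0.965. Its median signal before normalization was 476.2, against 255.7 to 400.2 in the other 67 arrays. Its RNA quality by the ratio of 3' to 5' actin probe sets (0.91 on the log2 scale) lay within the range of the series (0.16 to 1.22) but above the other 3 cerebellar pools at 4 wks (0.51 to 0.56). Replicate 2 of 4L/PS-NA cerebrum was at 1.21, above the WT pools (0.55 to 0.86), and had the highest Gapdh ratio of the series, 0.05. With the actin ratio as a covariate, 12 probe sets were called over both regions in place of the 20 described below. The summed signal of 10 choroid plexus genes was 18097 on this array and between 69923 and 100930 on the other 7, although the list's median was 1.12 above the WT cerebella on it. The summed signal of 11 genes of meninges and fibroblasts was 51709 on it and between 22414 and 30809 on the other 7. No marker in either list was at 0, and the part of other tissue in the results below was not tested. Results are given with all 8 arrays and without this one.

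With 8 arrays, 20 of 45037 probe sets differed between 4L/PS-NA and WT over both regions (0.0444%), 14 higher and 6 lower. Without the divergent array, 143 differed (0.318%), 92 higher and 51 lower, and the 20 were all among them. By the methods' thresholds the counts were 78 (0.173%) and 1596 (3.54%). A single fit that added the 12 and 18 wks pools of both genotypes, so that 24 arrays shared the estimate of spread, called 344 at 4 wks (0.764%) with the divergent array kept. In 115 of the 143 probe sets, the divergent array lay beyond both WT cerebellar pools on the side of the change. It had not entered that fit, but the WT pools had, so the count is not independent of the calls. The share over all probe sets was not counted. Leaving out any of the other 7 pools left 3 to 6 calls, all higher in 4L/PS-NA. The 20 probe sets rested on 8 arrays, and 3 of them, for Mtmr7, Prdx2 and Rps9, were called whichever pool was left out.

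**Figure D1:**
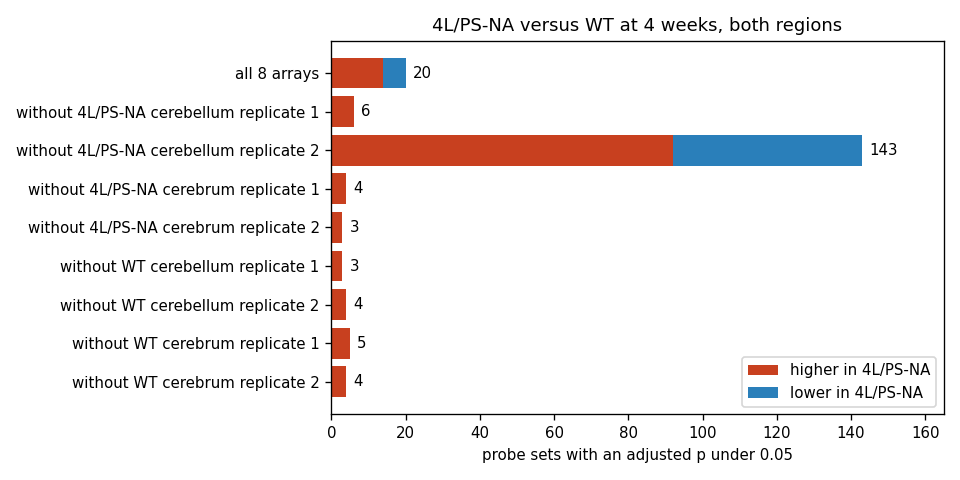
Number of probe sets with an adjusted p under 0.05 (x axis) in the comparison of 4L/PS-NA with WT at 4 wks, with all 8 arrays and leaving out each pool in turn (y axis), split into higher and lower in 4L/PS-NA. The count was 20 with all arrays, 143 without replicate 2 of 4L/PS-NA cerebellum and 3 to 6 without any other pool.

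The gene inactivated in the model was lower in every 4L/PS-NA pool. Psap, on mouse chromosome 10 (60277628 to 60302600, GRCm38.p6), encodes prosaposin and was measured by 2 probe sets, both called. The brighter was at 15.87 and 15.82 in WT cerebellum and at 12.76 and 11.72 in 4L/PS-NA cerebellum. In cerebrum it was at 15.53 and 15.28 in WT and at 13.08 and 13.41 in 4L/PS-NA. The groups did not overlap in either region, and the divergent array held the lowest value. The difference was -2.88 ± 0.33 (SE; 7.36-fold lower, adjusted p = 0.0317) with 8 arrays and -2.53 (adjusted p = 0.000444) without the divergent array. The other probe set differed by -3.21 (adjusted p = 0.0317). Psap in the PS-NA pools was between 11.85 and 13.19, and 4L/PS-NA differed from PS-NA by 0.19 (adjusted p = 0.772). The part of the transcript that the knockout and the transgene leave detectable by these probes is not given in the sources used here. No probe set named for acid β-glucosidase was analysed here, so the 4L allele was not checked at the level of RNA.

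The largest increases among the named probe sets called with 8 arrays were those of Mtmr7, Prdx2 and Rps9, none of which was called between PS-NA and WT (adjusted p 0.487 to 0.898). Mtmr7, a phosphoinositide phosphatase of the myotubularin family (chromosome 8, 40548199 to 40634935), was at 12.45 and 12.64 in 4L/PS-NA cerebellum and 12.83 and 12.68 in cerebrum. WT pools were at 7.61 and 7.91 in cerebellum and 7.39 and 7.58 in cerebrum. All 4 pools, the divergent one included, stood above all 4 WT pools. The difference was 5.03 ± 0.23 (SE; 32.6-fold, adjusted p = 0.000134), and in PS-NA the 4 pools were between 7.86 and 8.26. Prdx2, a peroxiredoxin that reduces hydrogen peroxide (chromosome 8, 84969622 to 84974811), was at 13.27 and 13.55 in 4L/PS-NA cerebellum against 9.4 and 9.0 in WT. In cerebrum it was at 13.1 and 13.2 against 9.39 and 8.98. The difference was 4.09 ± 0.2 (SE; 17.0-fold, adjusted p = 0.000153). Rps9, a protein of the small ribosomal subunit (chromosome 7, 3703954 to 3706897), was higher by 3.72 ± 0.25 (SE; adjusted p = 0.00161), at 12.96 to 14.1 in 4L/PS-NA pools against 9.08 to 10.17 in WT.

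4 further named probe sets differed from both WT and PS-NA. Vps52, a subunit of the GARP complex that tethers endosome-derived vesicles at the trans-Golgi network, was higher by 2.49 (adjusted p = 0.0198). Glg1, a Golgi sialoglycoprotein, was higher by 2.02 (adjusted p = 0.0198), whereas PS-NA lay below WT (-0.59, adjusted p = 0.0429). Myo7a, an unconventional myosin best known from sensory hair cells, was higher by 2.31 (adjusted p = 0.0437), at 10.02 to 10.99 in 4L/PS-NA pools and 7.67 to 8.41 in WT pools. Psmc3ip, a cofactor of meiotic recombination, was at 8.89 to 9.61 in 4L/PS-NA pools against 10.7 to 11.51 in WT, a difference of -1.83 (adjusted p = 0.0347). In none of the 7 named probe sets of this pattern did a 4L/PS-NA pool overlap a WT pool of its region. They were called on these same arrays, so that lack of overlap is not separate evidence. Against PS-NA without the divergent array, all 7 differed (adjusted p 1.32e-05 to 0.0189), and with it 5 did, Myo7a (0.0705) and Psmc3ip (0.0516) being the exceptions.

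The other probe sets of these genes mostly did not share the change. The second Mtmr7 probe set differed by 0.44, the second of Prdx2 by -0.15, the other 2 of Rps9 by -0.84 and -0.5, and the second of Vps52 by 0.1. None of those was called with 8 arrays. Of the 3 other Glg1 probe sets, 1 differed by 1.06 with no overlap in either region and was called without the divergent array (adjusted p = 0.0155). The others differed by -0.01 and 0.19 over both regions. They lay below WT in cerebellum (-0.66 and -0.24) and above it in cerebrum (0.64 and 0.63), without overlap in either region. The second Psmc3ip probe set differed by -3.0 (adjusted p = 0.343) and was called without the divergent array too (adjusted p = 0.0223). Myo7a had 1 probe set. The suffix x in the names of the Rps9, Vps52 and Dhx30 probe sets marks probes that can match other transcripts. The suffix s in those of the called Mtmr7 and Psmc3ip probe sets marks probes shared by several transcripts. The level of 1 probe set is therefore not the level of the gene. Which transcripts or alleles these probes read was not tested.

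**Figure D2:**
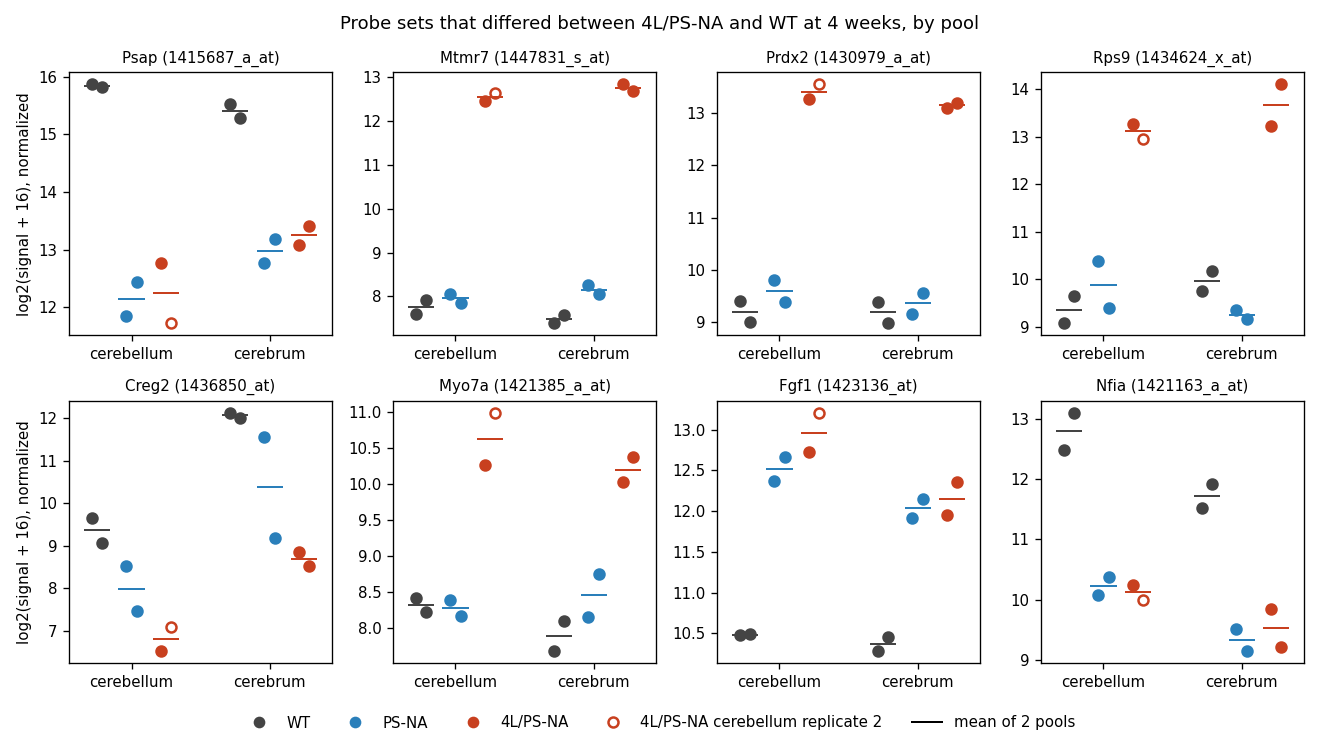
Normalized log2(signal + 16) of 8 called probe sets (y axis) in each pool at 4 wks, by region (x axis) and genotype. Points are pools, the open point is replicate 2 of 4L/PS-NA cerebellum and lines are means of 2 pools. Psap, Fgf1 and Nfia differed from WT in both PS-NA and 4L/PS-NA, whereas Mtmr7, Prdx2, Rps9 and Myo7a were higher in each 4L/PS-NA pool than in any WT or PS-NA pool.

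For a second set of called probe sets, PS-NA differed from WT too, and no difference between 4L/PS-NA and PS-NA was called. In PS-NA 1550 probe sets differed from WT (3.44%), and 6 of the 20 were among them in the same direction. Fgf1, a fibroblast growth factor, was at 12.72 and 13.21 in 4L/PS-NA cerebellum, at 12.37 and 12.67 in PS-NA cerebellum and at 10.48 and 10.49 in WT cerebellum. The difference from WT was 2.14 ± 0.23 (SE; adjusted p = 0.0198). Pcdhb9, a clustered protocadherin of neuronal surfaces, was higher by 2.91 (adjusted p = 0.00666), with 4L/PS-NA pools at 11.07 to 11.52, PS-NA pools at 11.33 to 11.69 and WT pools at 7.97 to 8.72. Dhx30, an RNA helicase of mitochondrial ribosome assembly, was higher by 1.69 (adjusted p = 0.0198). Nfia, a nuclear factor that directs glial differentiation, was at 9.22 to 10.25 in 4L/PS-NA pools against 11.53 to 13.11 in WT, a difference of -2.44 (adjusted p = 0.0198). That was 1 of 6 Nfia probe sets, and the other 5 differed by -1.41 to -0.27 without a call. The 3 other Dhx30 probe sets differed by -0.47 to 3.78, 1 of them called without the divergent array, and the 2 others of Fgf1 by -0.41 and 1.73, the latter also called without the divergent array (adjusted p = 0.0451). PS-NA differed from the WT pools by 1.85, 2.96, 1.44 and -2.49 in Fgf1, Pcdhb9, Dhx30 and Nfia. The 2 comparisons share the WT arrays, so their likeness is not independent. Differences of 4L/PS-NA from PS-NA in these 4 genes were between -0.04 and 0.29 (adjusted p 0.545 to 0.946).

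Creg2, a secreted glycoprotein of neurons, fell in both regions. It was at 9.66 and 9.08 in WT cerebellum and 6.52 and 7.09 in 4L/PS-NA cerebellum. In cerebrum it was at 12.14 and 12.01 in WT and 8.87 and 8.53 in 4L/PS-NA. The difference was -2.97 ± 0.32 (SE; 7.84-fold lower, adjusted p = 0.0198) and the groups did not overlap. PS-NA pools lay between, at 8.52 and 7.47 in cerebellum and 11.57 and 9.19 in cerebrum, and the 2 cerebral PS-NA pools differed from each other by more than either pair of the other genotypes. 6 of the 20 called probe sets carry no gene name in the annotation used here. 5 were higher, by 1.82 to 4.76, and 1 was lower, with a difference of -2.92.

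By their brightest probe sets, the C1q genes were higher with and without the divergent array. In the main fits of 4 wks alone, they were called once it was left out. C1qa, C1qb and C1qc encode the 3 chains of C1q, the recognition component of the classical complement pathway, which microglia make in brain and which tags synapses for removal during development. C1qb was at 11.94 and 11.79 in 4L/PS-NA cerebellum and 12.59 and 12.6 in cerebrum, and at 10.59, 10.18, 10.91 and 11.36 in the matching WT pools. C1qc was at 11.3 and 12.41 in 4L/PS-NA cerebellum and 11.96 and 12.28 in cerebrum, against 9.28, 9.1, 10.75 and 10.45 in WT. C1qa was at 12.27 to 13.28 in 4L/PS-NA and 10.98 to 12.22 in WT, with no overlap within a region. With 8 arrays the differences were 1.12 ± 0.17, 1.47 ± 0.19 and 2.1 ± 0.33 (SE) for C1qa, C1qb and C1qc, with adjusted p of 0.102, 0.0557 and 0.102, so that all 3 met the methods' thresholds and missed 0.05. Without the divergent array the differences were 1.16, 1.5 and 1.76 (adjusted p = 0.0101, 0.00595 and 0.00536), and in the fit over 24 arrays the adjusted p was 0.000955, 7.02e-05 and 0.000137. Each of the 3 C1qb probe sets was called without the divergent array. With 8 arrays the 2 dimmer ones differed by 1.09 (adjusted p = 0.212) and 0.44 (adjusted p = 0.891). In the latter the divergent array was at 7.23, below the WT cerebellar pools at 10.14 and 10.19. In bulk tissue, more microglia and more RNA per microglial cell cannot be told apart.

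PS-NA pools lay between WT and 4L/PS-NA in both regions for C1qb and C1qc, and for C1qa in cerebrum. In cerebellum 1 PS-NA pool, at 12.33 for C1qa, stood above the divergent array, at 12.27. C1qb in PS-NA was at 10.96 and 11.38 in cerebellum and 11.65 and 11.75 in cerebrum, and differed from the same WT pools by 0.67 (adjusted p = 0.0434). 4L/PS-NA differed from PS-NA in C1qb by 0.79 with 8 arrays (adjusted p = 0.173) and by 0.85 without the divergent array (adjusted p = 0.0313). For C1qa that difference was 0.33 (adjusted p = 0.441) and 0.39 (adjusted p = 0.2), and for C1qc 1.05 (adjusted p = 0.2) and 0.81 (adjusted p = 0.0548).

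The 3 C1q genes lie side by side on mouse chromosome 4. Since they moved together, the 250 bases before the transcription start of those in the RefSeq promoter table of GRCm38.p6, C1qb and C1qc, are shown, both read on the minus strand. Capitals mark the letters GAGGAA, a core read by the myeloid factor PU.1, or TTCCTC, the same letters on the other strand.
C1qb (chr4:136886201-136886450): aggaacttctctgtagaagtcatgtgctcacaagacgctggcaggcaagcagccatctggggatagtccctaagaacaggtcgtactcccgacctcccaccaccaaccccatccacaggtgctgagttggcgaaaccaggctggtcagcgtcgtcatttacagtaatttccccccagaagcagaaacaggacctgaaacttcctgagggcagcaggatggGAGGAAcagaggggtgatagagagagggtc
C1qc (chr4:136892915-136893164): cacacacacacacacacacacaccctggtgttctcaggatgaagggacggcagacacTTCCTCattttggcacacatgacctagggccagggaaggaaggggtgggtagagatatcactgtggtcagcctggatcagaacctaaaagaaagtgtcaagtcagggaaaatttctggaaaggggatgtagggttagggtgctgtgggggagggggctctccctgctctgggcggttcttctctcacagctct
Each held 1 match, beginning 30 bases before the start in C1qb and 193 bases before it in C1qc. These letters occur on either strand in 23.3% of the 32851 upstream stretches of this length in the table, so a match is a description and not a binding site.

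The other microglial and immune lists held few calls at 4 wks in the fits of that age alone. By the methods' thresholds and 8 arrays, 24 of 18193 genes were higher (0.132%), and without the divergent array 414 were (2.28%). Over all probe sets, 3857 of 45037 had an unadjusted p under 0.05 with 8 arrays, in either direction. Counts of list genes at that level, here and below, stand beside that share. Of 10 genes for complement and Fc receptors, the C1q chains were the 3 that passed in either fit, and C3ar1, the receptor for the complement fragment C3a, differed by 0.81 (adjusted p = 0.546). Of 19 genes of disease-associated microglia, 0 passed in limma with 8 arrays (4 at an unadjusted p under 0.05) and 2 without the divergent array. Those were Gpnmb, a glycoprotein of lipid-laden phagocytes, at 1.88 (adjusted p = 0.103), and Cd68, a lysosomal glycoprotein of phagocytes, at 1.13 (adjusted p = 0.121). Cd68 was at 10.18 and 10.73 in 4L/PS-NA cerebellum against 8.65 and 8.31 in WT, and at 10.59 and 10.42 in cerebrum against 9.88 and 9.64. Its groups did not overlap in either region, but its difference of 1.36 over 8 arrays was not called (adjusted p = 0.425). Lgals3, the lectin galectin 3, differed by 1.32 (adjusted p = 0.544) and Tyrobp, the signalling adaptor of TREM2, by 0.8 (adjusted p = 0.544). Of 15 homeostatic microglial genes, 1 passed without the divergent array, Fcrls, at 1.16 (adjusted p = 0.0657). Csf1r, the receptor that microglia need to survive, differed by 0.69 (adjusted p = 0.477). In the fit over 24 arrays, which kept the divergent array, the 4 wks differences of Cd68, Fcrls and Lgals3 were called (adjusted p = 0.00165, 0.0338 and 0.0375). Markers of choroid plexus and of meninges moved with these lists in cerebellum. The median of the 10 choroid plexus genes stood 0.73 and 1.12 above WT in the 2 cerebellar pools and at 0.14 and -0.12 in the cerebral pools. In cerebellum all 10 were positive without the divergent array, where only replicate 1 of 4L/PS-NA is left. The median of the 11 genes of meninges and fibroblasts stood at 0.28 and 0.99 in cerebellum and at -0.19 and 0.11 in cerebrum. Their part in the immune differences was not tested.

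Lysosomal genes held a few more calls. Of 27 genes for lysosomal proteases and membrane proteins, 1 passed the methods' thresholds with 8 arrays and 5 without the divergent array, all higher, and the list's median difference was 0.18 with 8 arrays against 0.06 over all genes. Laptm5, a lysosomal membrane protein of blood-derived cells and microglia, was at 11.8, 11.91, 12.45 and 12.52 in the 4L/PS-NA pools and 11.01, 10.56, 11.6 and 11.5 in WT, cerebellum first. It differed by 1.0 (adjusted p = 0.191) with 8 arrays and 0.97 (adjusted p = 0.0342) without the divergent one. Man2b1, lysosomal α-mannosidase, was at 12.29 to 12.7 in 4L/PS-NA and 11.26 to 11.85 in WT, and differed by 0.98 (adjusted p = 0.294) and 1.04 (adjusted p = 0.0409). Both Man2b1 and Grn, which encodes progranulin, were called in the fit over 24 arrays (adjusted p = 0.0072 and 0.0428). Grn differed by 0.79 (adjusted p = 0.351 with 8 arrays) and was higher in all 4 pools than in the WT pools of the same region.

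**Figure D3:**
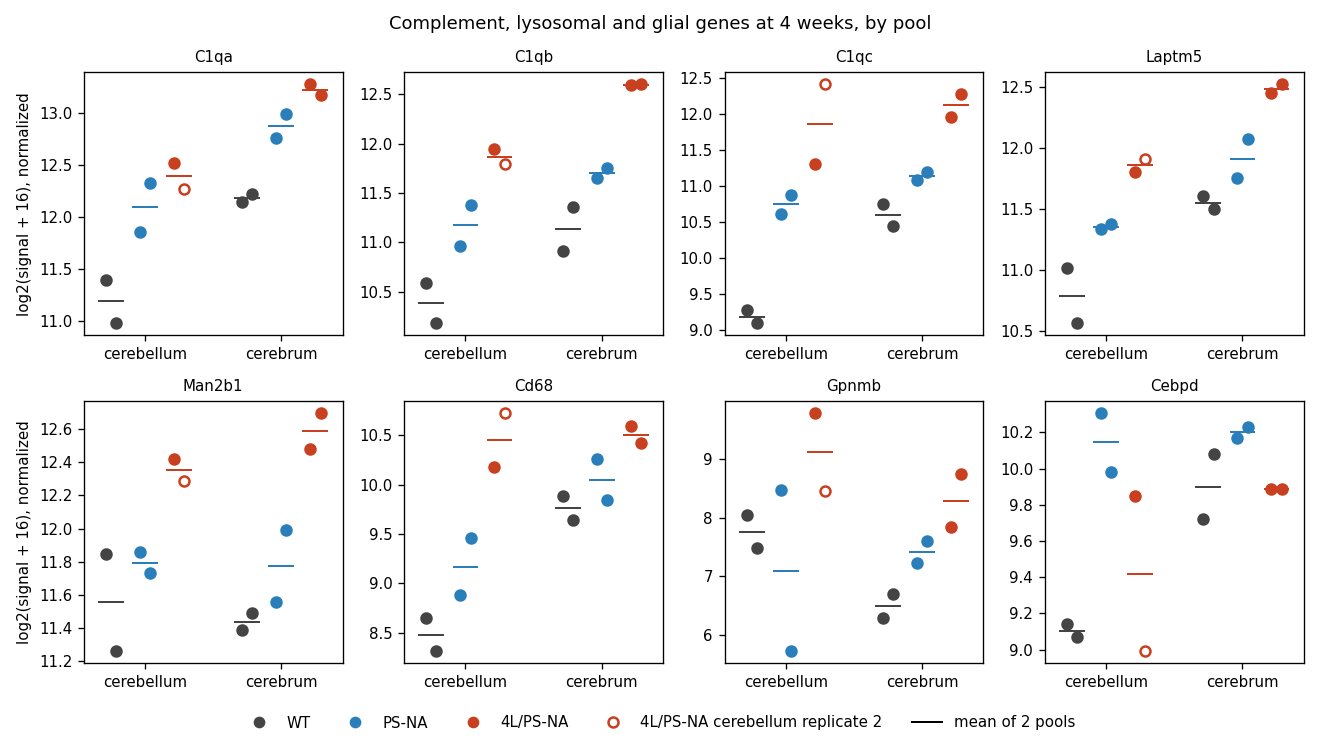
Normalized log2(signal + 16) (y axis) of complement, lysosomal and glial genes in each pool at 4 wks, by region (x axis) and genotype. Points are pools, the open point is replicate 2 of 4L/PS-NA cerebellum and lines are means of 2 pools. Each gene is shown by its brightest probe set. By that probe set the C1q chains, Laptm5 and Cd68 were higher in each 4L/PS-NA pool than in either WT pool of its region, whereas Cebpd overlapped.

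Reactive astrocyte, antigen presentation and interferon lists had positive medians, and 0 of their genes passed in limma with 8 arrays. At an unadjusted p under 0.05 there were 3, 5 and 4, beside 3857 of all 45037 probe sets. The median difference of 19 reactive astrocyte genes was 0.55, with 16 positive, and 1 passed the methods' thresholds without the divergent array: S1pr3, a receptor for sphingosine 1-phosphate, at 0.67 (adjusted p = 0.127). Gfap, the intermediate filament of astrocytes, was at 13.62 and 14.34 in 4L/PS-NA cerebellum against 13.56 and 12.71 in WT. In cerebrum it was at 13.13 and 13.79 against 12.94 and 13.46, so that the groups overlapped, and the difference was 0.55 ± 0.28 (SE; adjusted p = 0.617). Timp1 and Osmr, an inhibitor of metalloproteases and the oncostatin M receptor, differed by 0.94 and 0.87 (adjusted p = 0.542 for each). The median of 12 antigen presentation genes was 0.61, and 3 passed without the divergent array, all higher. H2-Eb1, the beta chain of an MHC class II molecule, was at 8.72 and 10.29 in 4L/PS-NA cerebellum against 7.38 and 7.31 in WT and at 9.38 and 9.19 in cerebrum against 7.94 and 7.8. It differed by 1.79 (adjusted p = 0.403), and by 1.4 (adjusted p = 0.121) without the divergent array, which held the highest value. H2-D1, a class I heavy chain, differed by -0.55 (adjusted p = 0.526). The major histocompatibility genes differ between mouse strains, and strain and genotype cannot be told apart here. The median of 15 interferon response genes was 0.52, and 3 passed without the divergent array, all higher. Ifit3, an interferon-induced antiviral protein, was at 10.48, 9.84, 9.74 and 10.59 in 4L/PS-NA and between 9.14 and 9.28 in WT, a difference of 0.96 (adjusted p = 0.516). In the fit over 24 arrays H2-Eb1 and Ifit3 were called at 4 wks (adjusted p = 0.0419 and 0.0395).

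Immediate early and synaptic vesicle genes had positive medians too. Of 16 immediate early genes, 13 had a positive difference, with a median of 0.47. In limma 0 passed the methods' thresholds with 8 arrays (6 at an unadjusted p under 0.05) and 4 without the divergent array. Among all probe sets, 3857 of 45037 were at that unadjusted level with 8 arrays. Nr4a1, an orphan nuclear receptor induced within minutes of neuronal activity, was at 12.45 and 12.94 in 4L/PS-NA cerebellum against 10.71 and 12.15 in WT. In cerebrum it was at 13.67 and 13.3 against 12.88 and 12.23, and the difference was 1.1 (adjusted p = 0.512). Egr4 and Fosb, transcription factors of the same kind of response, differed by 1.02 (adjusted p = 0.476) and 1.13 (adjusted p = 0.528). The list's median was 0.55 in the first cerebellar pool and 0.75 in each cerebral pool, but 0.06 on the divergent array. Of 18 synaptic vesicle genes, 0 passed with 8 arrays (6 at an unadjusted p under 0.05) and 3 without the divergent array, all higher. Slc17a7, a vesicular glutamate transporter, differed by 0.78 (adjusted p = 0.47), Syn1, a vesicle phosphoprotein, by 0.59 (adjusted p = 0.526) and Syp, synaptophysin, by 0.63 (adjusted p = 0.541, and 0.0364 in the fit over 24 arrays).

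In the glycosphingolipid pathway itself, few genes but Psap passed. Of 13 genes for glycosphingolipid degradation, Psap was the 1 that passed in either fit, and the list's median difference was 0.24. Ctsa, protective protein for lysosomal sialidase and β-galactosidase, differed by 0.65 (adjusted p = 0.528) and Arsa, which desulfates sulfatide with saposin B, by 0.49 (adjusted p = 0.564). In limma with 8 arrays, 0 of 16 glycosphingolipid synthesis genes passed (2 at an unadjusted p under 0.05, beside 3857 of all 45037 probe sets). Without the divergent array 3 passed upward and 1, Ugt8a, downward, where 1.66% of all genes passed downward, against 0.0275% with 8 arrays. B3galt4, which extends gangliosides, differed by 1.06 (adjusted p = 0.19). Ugt8a makes galactosylceramide, the main glycolipid of myelin, and fell by 0.67 on the log2 scale (adjusted p = 0.049) in that fit. It was at 13.92, 13.85 and 13.65 in the 3 pools against 14.44 to 14.53 in WT, but the divergent array was at 14.72. The 16 myelin genes had a median difference of -0.25, and 0 passed with 8 arrays (3 at an unadjusted p under 0.05), and 3 passed downward without the divergent array. Mal, a proteolipid of compact myelin, was at 13.96 and 13.81 in 4L/PS-NA cerebrum against 15.15 and 15.12 in WT cerebrum. In cerebellum the groups overlapped, at 13.51 and 14.28 against 14.53 and 13.82. Mog and Cldn11, 2 further myelin proteins, differed by -0.44 (adjusted p = 0.564) and -0.47 (adjusted p = 0.549).

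**Figure D4:**
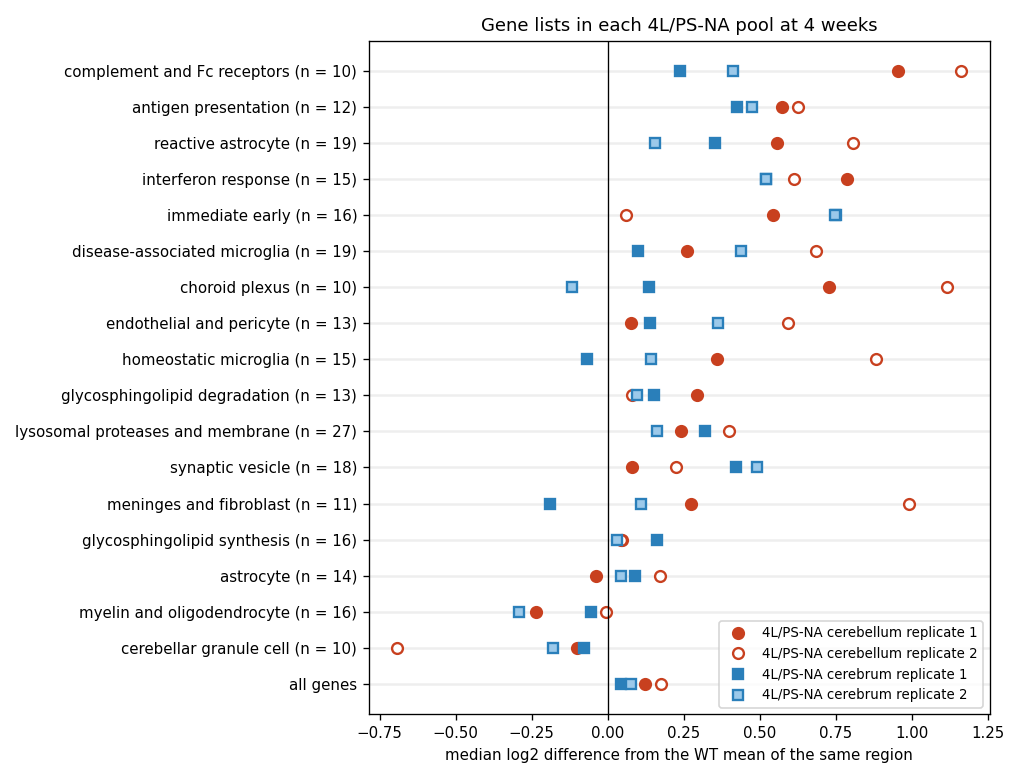
Median log2 difference of each gene list (y axis, with the number of genes measured) from the WT mean of the same region (x axis), in each of the 4 pools of 4L/PS-NA at 4 wks. Complement, antigen presentation and interferon lists lay above 0 in all 4 pools, as did all genes and other lists, such as reactive astrocyte and synaptic vesicle. The divergent array, the open circle, lay farthest from 0 for choroid plexus, meninges and granule cell lists. It also lay farthest for complement, antigen presentation, microglial, reactive astrocyte, astrocyte, endothelial and lysosomal protease lists.

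Of the transcription factors and other genes that the study names, few were called here at 4 wks. Cebpd, a transcription factor of inflammatory responses, was at 9.85 and 8.99 in 4L/PS-NA cerebellum against 9.14 and 9.07 in WT, and at 9.89 and 9.89 in cerebrum against 9.72 and 10.08. The groups overlapped in both regions, and the difference was 0.15 ± 0.28 (SE; adjusted p = 0.879), or -0.05 without replicate 1 of 4L/PS-NA cerebellum. The second, dimmer Cebpd probe set was at 9.01 and 8.51 in 4L/PS-NA cerebellum against 8.01 and 7.86 in WT, and at 8.46 and 8.61 in cerebrum against 8.17 and 8.6. Its groups overlapped in cerebrum and not in cerebellum, and it differed by 0.49 (adjusted p = 0.684). Of 19 genes of the study's network around it, 0 passed the methods' thresholds in limma with 8 arrays (3 at an unadjusted p under 0.05) and 1 without the divergent array: Kcnn2, a calcium-activated potassium channel, at -0.86 (adjusted p = 0.1). The list was chosen by the study on this series. With 8 arrays, 3857 of all 45037 probe sets had an unadjusted p under 0.05. Atf3, a stress-induced factor, differed by 0.93 ± 0.59 (SE; adjusted p = 0.66). Clasp2, which stabilizes microtubule ends, was lower in each 4L/PS-NA pool, at 13.34 to 13.78 against 14.08 to 14.18 in WT. Its difference was -0.56 (adjusted p = 0.5) with 8 arrays and -0.65 (adjusted p = 0.0533) without the divergent array, and its 5 probe sets ranged from -2.31 to 1.34.

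Taken by region, each comparison had 2 pools a side. In cerebellum 2 probe sets were called with 8 arrays (0.00444%) and 9 without the divergent array (0.02%). In cerebrum 2 were called (0.00444%) and 19 without the divergent cerebellar array (0.0422%), which there changes only the shared estimate of spread. Mtmr7 and Prdx2 differed by 4.78 and 4.21 in cerebellum and by 5.27 and 3.96 in cerebrum. The difference between the regions themselves was called for 0 probe sets (0%) with 8 arrays and 0 without the divergent array in limma, with 1356 and 2125 at an unadjusted p under 0.05. Its median SE was 0.85 on the log2 scale, and Psap, at -1.44 ± 0.48 (SE), was not called (adjusted p = 0.937).

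Against PS-NA pools of the same age, which carry the prosaposin defect too, 10 probe sets were called with 8 arrays (0.0222%), all higher in 4L/PS-NA, and 437 without the divergent array (0.97%), 233 higher and 204 lower. Strain differs between the 2 groups here too. 8 of the 20 probe sets called against WT were among the 10, and 12 were among the 437. These comparisons share the 4L/PS-NA arrays. Sox2ot, a long non-coding transcript around Sox2, differed by 2.24 from PS-NA (adjusted p = 0.0658) and by 2.25 from WT (adjusted p = 0.0735), and it was called in both without the divergent array. Extl2, a glycosyltransferase of heparan sulfate synthesis, was lower, by -0.99 against WT (adjusted p = 0.134) and -0.92 without the divergent array (adjusted p = 0.0202). Within 10 Mb of Psap, 0 of 119 genes were called with 8 arrays and 1 without the divergent array, Nus1, a subunit of dolichol synthesis, at -0.75 (adjusted p = 0.0426).

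In other pools of 4L/PS-NA and WT, at 12 and 18 wks, most called probe sets differed in the same direction. All 20 differed the same way at each age and 18 passed at each, where 5.94% and 3.01% of all probe sets did. Of the 143, 131 and 133 differed the same way, 93 and 92 passed, and 0 passed in the opposite direction. The 2 that missed at both ages were Psmc3ip and an unnamed probe set. Psap differed by -2.73 at 12 wks and -2.81 at 18 wks, close to the -2.88 at 4 wks. Mtmr7 differed by 4.34 and 4.62 at the later ages.

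Glial genes were farther from WT at the later ages, a comparison of values side by side without a test of age. Gpnmb differed by 1.57 at 4 wks (adjusted p = 0.5), 4.7 at 12 wks and 6.75 at 18 wks. Cd68 differed by 1.36, 2.84 and 3.55, C1qb by 1.47, 2.33 and 2.54, Gfap by 0.55, 1.64 and 2.31 and Cebpd by 0.15, 1.24 and 1.59. Of the 19 disease-associated microglial genes, 15 passed the methods' thresholds upward at each later age, where 7.28% and 5.95% of all genes did. Among the immediate early genes Nr4a1 differed by 1.1, 0.41 and -0.16 at the 3 ages. The list's median was 0.47, 0.4 and -0.16, with 13, 13 and 4 of its 16 genes positive, and 0, 3 and 0 passed the methods' thresholds upward.

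**Figure D5:**
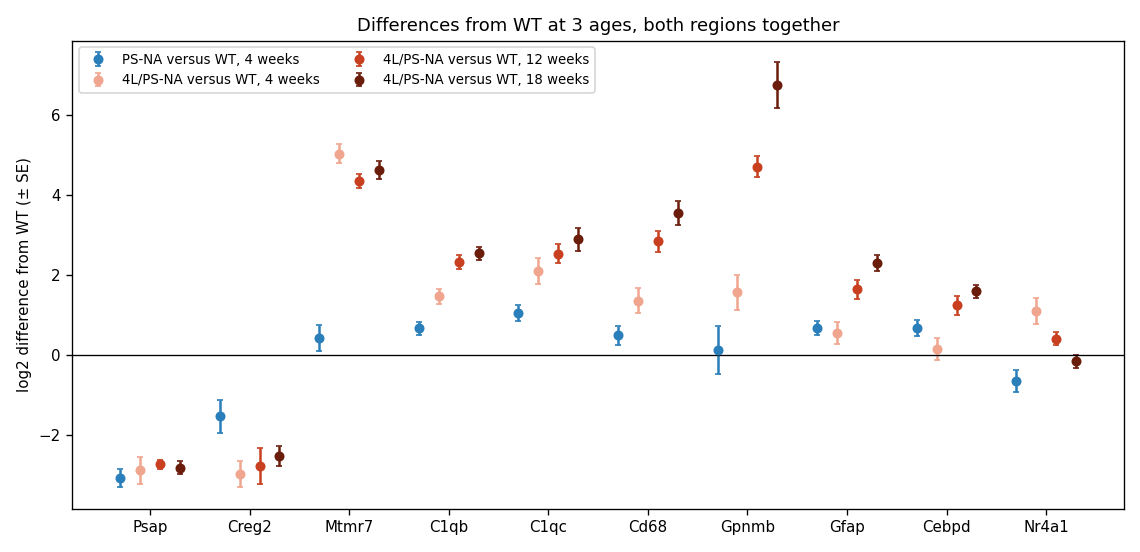
Log2 difference from WT with its SE (y axis) over both regions for 10 genes (x axis), for PS-NA at 4 wks and for 4L/PS-NA at each of the 3 ages. Psap was at -2.88, -2.73 and -2.81 at the 3 ages, whereas Gpnmb was at 1.57 at 4 wks and 6.75 at 18 wks.

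Transcripts of the sex chromosomes differed between pools of a group. Xist, the non-coding RNA of the inactive X chromosome, was at 11.78 and 7.61 in the WT cerebellar pools, 11.99 and 8.67 in the WT cerebral pools and between 10.44 and 13.22 in the 4L/PS-NA pools. The 4 sex-linked genes measured had adjusted p of 0.688 to 0.865 between the groups, and the part of the sexes of the pooled mice in other differences was not tested.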

How the data were processed

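Total RNA of mouse brain regions was hybridized to Affymetrix 430 2.0 arrays, 1 array per pool of 3 mice. Per the labels and the study's methods, the authors made the deposited intensity values, linear signals on which each array has a trimmed mean of 1500, with GCOS 1.1. The members and gene lists were chosen with earlier results of these data known. From the signals, log2(signal + 16) was taken and quantile normalized over all 68 arrays. 64 control probe sets were left out and 45037 were tested with limma 3.58.1 in R 4.3.3 (moderated by lmFit and eBayes with a trend), with genotype and region as terms and Benjamini-Hochberg adjustment over all of them. Each comparison that holds replicate 2 of 4L/PS-NA cerebellum at 4 wks was also fitted without it. The comparison by region used a separate mean for each genotype and region. Symbols came from GEO's platform annotation, in which 34958 probe sets have 1 symbol, 932 several and 9211 none, and 34754 symbols were updated through RefSeq gene IDs of GRCm38.p6. A gene's value is its brightest probe set (18193 genes), and of 477 entries in 32 lists 427 were measured. The rule for named genes took the genes of largest change called with and without the divergent array by their brightest probe set, up to 4 members of a list with the smallest p, genes the study names, those with the smallest p against PS-NA and called neighbours of Psap. Added after their values were seen were the other named probe sets called with 8 arrays and list members that passed without the divergent array. Arrays have no read depth, and the number of pools limits precision. Nothing states that pools of a group are independent beyond the mice they hold, so p-values measure the spread between these pools. The scripts were tested on simulated data. Figures were drawn with matplotlib 3.10.9.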

Additional observations from a re-analysis of the deposited data

Results flagged for a closer look

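In 89 sets of 4 values, a named gene's or a list's difference from WT in each of the 4 pools of 4L/PS-NA, 6 had a pool that stood farther from the rest than Dixon's 95% critical value for 4 samples allows, where chance gives about 1 in 20. In 3 of them the pool apart was replicate 2 of 4L/PS-NA cerebellum: Csf1r at 1.16 (the others at 0.48 to 0.58), H2-Eb1 at 2.94 (the others at 1.32 to 1.51) and the cerebellar granule cell list, with a median of -0.69 (the others at -0.18 to -0.08). Replicate 1 of cerebrum stood apart for Pcdhb9 at 3.24 (the others at 2.77 to 2.84) and for the glycosphingolipid synthesis list at 0.16 (the others at 0.03 to 0.05). Replicate 1 of cerebellum stood apart for Cebpd at 0.74, with the others at -0.11 to -0.01.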

How the results depend on the processing

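The counts of called probe sets depended on the estimate of spread, with 5 residual degrees of freedom in the comparison over both regions. Its 20 calls (14 higher) became 15 with each array centred on its median, 19 with quantile normalization over the arrays of the fit, 19 with an offset of 1, 22 with an offset of 64, 20 at a mean signal of at least 200 and 21 with genotype and replicate number as a random subject. They became 8 without a trend in eBayes, 8 in an ordinary linear model, 146 with array weights, 12 with the actin 3' to 5' ratio as a covariate, 344 in the fit over 24 arrays and 222 without replicate 2 of 4L/PS-NA in both regions. Leaving out 1 pool gave 3 to 143. In cerebellum the 2 calls became 0 without a trend, 0 in an ordinary model, 4 with array weights and 148 over 24 arrays, and leaving out 1 pool gave 0 to 8319, the highest without replicate 1 of 4L/PS-NA cerebellum, where the divergent array alone stands for the group. In cerebrum the 2 became 0 without a trend, 0 in an ordinary model, 14 with array weights and 55 over 24 arrays, and 0 to 21 leaving out 1 pool. The difference between regions was called 0 to 4583 times leaving out 1 pool, the 4583 without the same replicate 1, and 0 times in each other setting. Against PS-NA the 10 became 21 with median centring (10 higher), 23 with an offset of 64, 17 at a mean signal of at least 200, 3 without a trend, 3 in an ordinary model, 822 with array weights, 22 with the random subject and 2 to 437 leaving out 1 pool. At 12 wks median centring gave 3800 calls, 2333 of them higher, against 2676, 1082 of them higher, and leaving out 1 pool gave 944 to 3576. At 18 wks leaving out 1 pool gave 537 to 2191. The causes were not tested.

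Deviations of same-numbered pools were weakly correlated over all pairs of groups, also those of different genotypes (0.0211 to 0.0809). Between the 2 regions of a genotype the correlation was 0.072 in 4L/PS-NA and 0.0427 in WT. These values cannot show whether those pools held the same mice. The median of the sex-linked list, as a difference from WT, was -0.98 and 0.98 in WT cerebellum replicates 1 and 2. In WT cerebrum it was -0.88 and 0.88. In 4L/PS-NA it was 0.04 and -0.33 in cerebellum and 0.01 and -0.52 in cerebrum. Whether same-numbered pools of the 2 regions shared mice was not tested. With a replicate block the calls were 5 over both regions, 0 in cerebellum, 0 in cerebrum and 2 against PS-NA.

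Over 57 named genes and 1254 alternative values, 1099 kept direction and side of the threshold, 109 lost and 44 gained a call, and 2 reversed: Tapbp at -0.48 as the mean of its probe sets, and Cebpd at -0.05 without replicate 1 of 4L/PS-NA cerebellum (0.29 without replicate 2). None of the 13 called genes reversed. Of 704 list medians 38 moved by more than the spread between pools.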
